A study of Mus musculus with 90 samples.

Results

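The uterus was represented by 6 of the 90 libraries of the series, namely the samples whose tissue label is Womb, which comprise 3 estrus and 3 diestrus mice. The series holds 15 tissues of female mice, with 3 libraries for each tissue and phase. The labels give the strain as C57BL/6 and the age as 10 weeks, while the methods of the study name C57BL/6J and a younger age. All mice were cycling without a transgene or a treatment named in the labels. By the study's methods the phase was read from stained vaginal secretions, followed daily in each animal. Serum estrogen and progesterone of mice were measured as an aid to this. The phase was thus assigned to the mouse and not measured in the uterus. By the study's account 3 mice served as replicates of each phase and the 15 tissues were taken from them, so that libraries of different tissues share animals, although the labels do not say which libraries come from 1 mouse. Each library holds RNA of bulk frozen tissue, in which fewer cells of a type and less RNA per cell cannot be told apart.

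The mouse uterus consists of a luminal epithelium with glands, a stroma and the smooth muscle of the myometrium. Estradiol from the follicles acts through the estrogen receptor encoded by Esr1, makes the epithelium proliferate and secrete, and dominates before ovulation. Progesterone from the corpora lutea acts through the receptor encoded by Pgr in the following days. In the textbook account, progesterone induces the ligand Indian hedgehog in the epithelium, which signals to Ptch1 and the Gli factors of the stroma. The comparison asks how these and other uterine genes differ between a phase that follows the estradiol peak and a phase in which corpora lutea are present.

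Expression is given as FPKM (fragment counts corrected for transcript length and for the size of the library), in the order of replicates 1, 2 and 3 of a phase. The deposited table names no unit, and FPKM is inferred here from the values and from the quantifying tool RSEM. Of 20414 listed genes, 13706 averaged 1 FPKM or more in the uterus libraries and were tested, and 6708 were not. A gene can pass this filter through its values in 1 phase or 1 library. Differences between the phases are log2 fold changes of log2(FPKM + 1), estrus minus diestrus, with their standard error (SE, n = 3 per phase), a scale that understates the change of low genes. Lists of genes are described by their counts and by the median log2 fold change of the tested members, beside the median of all tested genes, which was -0.067, or -0.048 without estrus replicate 3.

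The libraries carried the defining genes of the uterus. Of 16 transcription factor and signalling genes that mark it, 10 had a higher mean FPKM in uterus than in each of the other 14 tissues, among them Hoxa11 with 48.1 FPKM against 3.5 in white adipose tissue, the next tissue, Msx1 with 264 against 3.07 in aorta and Sox17 with 125 against 11 in white adipose tissue. The libraries of a phase were unlike each other in ways that the phase does not name. Estrus replicate 3 had a Pearson's r across genes of 0.731 to 0.789 with the other 5 libraries, and genes are not independent replicates. Its depth, judged from the smallest steps between low values, was 0.644 of that of estrus replicate 1, and that of the other libraries 0.99 to 1.0.

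Estrus replicate 3 carried markers of oviduct and of squamous epithelium far above the other uterus libraries. The mean log2(FPKM + 1) over 29 markers of oviduct and ciliated epithelium was 1.23, 1.204 and 5.43 in estrus and 1.13, 1.27 and 1.13 in diestrus. Over 23 markers of squamous epithelium it was 1.10, 1.97 and 6.09 in estrus and 1.18, 1.06 and 0.50 in diestrus. Ovgp1, the oviduct glycoprotein, had 56.0, 22.3 and 2554 FPKM in estrus and 25.6, 126 and 23.7 FPKM in diestrus, and the basal keratin Krt5 0.06, 26.2 and 568 FPKM in estrus and 0.07, 1.80 and 0.14 FPKM in diestrus. The oviduct and ciliated markers also stood at 4.13 in ovary estrus replicate 3, against 0.902 to 1.69 in the other ovary libraries. Over all 33 listed squamous markers, tested or not, the mean was 0.411 to 0.601 in the 6 ovary libraries. In uterus the mean over these 33 was 0.824, 1.44 and 4.69 in estrus and 0.852, 0.79 and 0.385 in diestrus. Most log2 fold changes and list medians below are therefore given without estrus replicate 3 as well.

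Estrus replicate 2 was close to a diestrus library. Its r with diestrus replicate 1 was 0.981, the highest of the 15 pairs of uterus libraries, whereas its r with the other estrus libraries was 0.865 and 0.771. The mean log2(FPKM + 1) over 42 cell cycle genes was 2.34, 5.06 and 2.27 in estrus and 4.64, 3.00 and 3.35 in diestrus, with estrus replicate 2 and diestrus replicate 1 as the high libraries. The plot of list levels shows 11 of the 35 lists. Markers of smooth muscle (7.91, 6.31 and 5.78 in estrus and 6.68, 6.22 and 7.46 in diestrus) and of blood (2.53, 2.14 and 2.28 in estrus and 3.58, 2.62 and 5.51 in diestrus) varied between libraries as well. Diestrus replicate 3 stood apart too, with the lowest level of simple epithelium markers (6.92, 6.49 and 6.75 in estrus and 6.62, 6.70 and 5.66 in diestrus) and the highest of endothelium (3.58, 3.71 and 2.40 in estrus and 3.69, 3.57 and 4.38 in diestrus), stroma and blood. The part of these differences in the results was not tested, other than by leaving libraries out.

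**Figure D1:**
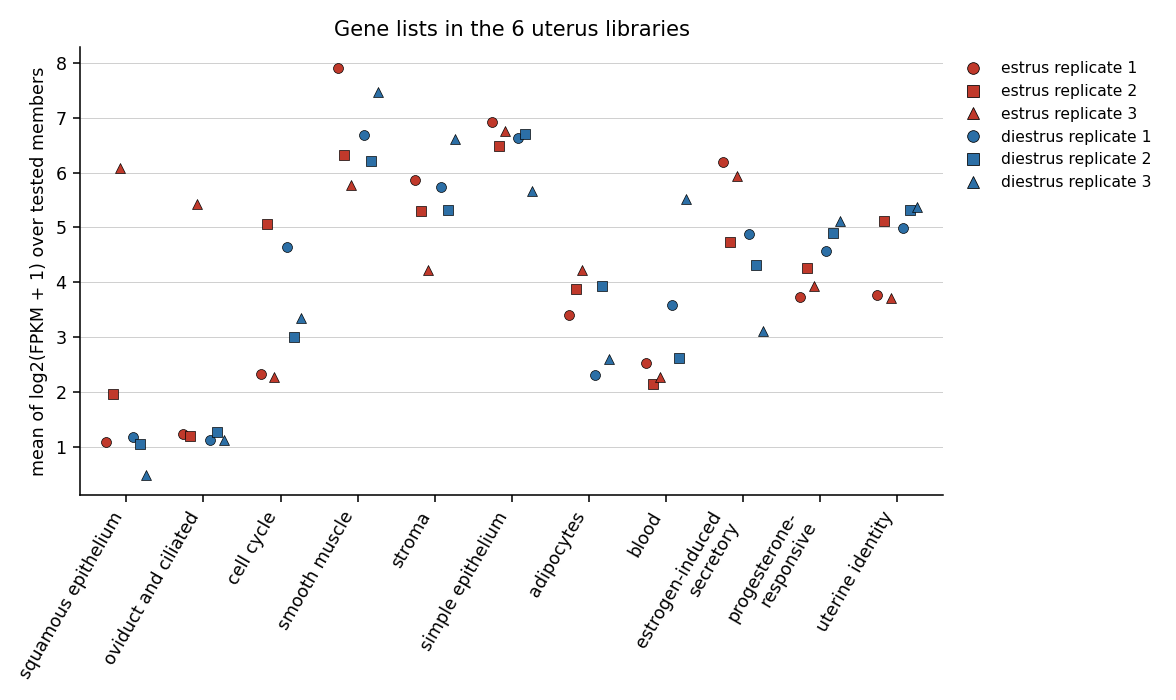
Mean log2(FPKM + 1) over the tested members of 11 gene lists (y axis) in each of the 6 uterus libraries, red for estrus and blue for diestrus, with 1 marker shape per replicate. Estrus replicate 3 stands at 6.09 for squamous and 5.43 for oviduct and ciliated epithelium, and estrus replicate 2 and diestrus replicate 1 are the highest libraries for the cell cycle.

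In the limma fit of the 6 uterus libraries, 0 of the 13706 genes (0%) reached an absolute log2 fold change of 1 with an adjusted p of at most 0.05. The smallest adjusted p was 0.897, and 512 genes had an unadjusted p under 0.05. With 3 mice against 3, an exact permutation test of a single gene cannot go below p = 0.1. The genes below are therefore described by their values, and by whether the 3 estrus values lay entirely above or below the 3 diestrus values. By that measure, 161 genes (1.17%) were higher and 168 (1.23%) lower in estrus by 1 or more on the log2 scale. Of these, 89 and 127 kept a log2 fold change of at least 1 without estrus replicate 3. Without the limit on the fold, 445 genes (3.25%) lay entirely higher and 640 (4.67%) entirely lower in estrus. Complete separation is the outcome to which the exact permutation test gives p = 0.1. A share of 0.1 of the genes would thus be separated if the phases did not differ. The shares found are not above it, and separation alone does not mark a gene as changed.

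A second limma fit took all 90 libraries, with a mean for each tissue and phase and a spread shared over the 15 tissues, here called the 90-library fit. Its median SE for the uterus contrast was 0.229, against 0.345 in the fit of the uterus libraries alone, so the uterus libraries varied more than this fit assumes. The fit treats the 90 libraries as independent, although the tissues come from the same mice. Taking libraries of 1 phase and number as tissues of 1 mouse gave a correlation between tissues of 0.0191 and 916 called genes in place of 914, an alternative chosen after seeing the data. It called 577 genes (4.21%) higher and 337 (2.46%) lower in uterus in estrus. Without estrus replicate 3 it called 192 (1.4%) higher and 203 (1.48%) lower, of which 152 and 165 were also called with it. Of the 737 genes with a log2 fold change of at least 1, estrus replicate 3 had the highest of the 3 estrus values for 559, and estrus replicate 2 for 9. Among the 377 genes with a log2 fold change of -1 or less, 199 had their lowest estrus value in estrus replicate 3, 162 in estrus replicate 1 and 16 in estrus replicate 2.

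The 12 leading genes lower in estrus were those of the smallest limma p among the genes whose phases did not overlap and whose log2 fold change was 1 or more in size both with and without estrus replicate 3. They included Ctsd, Slc5a11, Ptk2b, Acod1, Lrp2, Myd88, Npl, Jazf1, Mt2, Slc2a12 and S100g. All 12 were called lower in the 90-library fit with and without estrus replicate 3. That fit uses the same uterus values and fold changes by which the genes were chosen, so its calls are not separate support. Ctsd encodes cathepsin D, the aspartic protease of lysosomes, and was the most abundant of the 12 by mean FPKM. Its values were 352, 539 and 196 FPKM in estrus and 1956, 3504 and 3718 FPKM in diestrus, a log2 fold change of -3.14 ± 0.42 and of -2.75 without estrus replicate 3 (adjusted p in the 90-library fit with limma 1.24e-19 and 6.03e-17). By the rule of choice the lowest diestrus library was above the highest estrus library, which was estrus replicate 2. Npl, which breaks down free sialic acid, had 2.27, 17.3 and 8.74 FPKM in estrus and 51.4, 252 and 181 FPKM in diestrus, with a log2 fold change of -4.01 ± 0.78 and of -4.12 without estrus replicate 3.

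Further leading lower genes were Lrp2, S100g, Slc5a11, Slc2a12 and Mt2. Lrp2, the endocytic receptor megalin, had 0.26, 4.13 and 1.81 FPKM in estrus and 14.7, 54.6 and 81.0 FPKM in diestrus (log2 fold change -3.98 ± 0.73, and -4.03 without estrus replicate 3). In brackets, here and after, stand the log2 fold change with its SE and then the value without estrus replicate 3. S100g, the calcium-binding protein calbindin-D9k, had 59.3, 100.4 and 77.8 FPKM in estrus and 179.8, 528 and 722 FPKM in diestrus (-2.39 ± 0.52, and -2.39). Diestrus replicate 1 was the lowest diestrus library for Lrp2 and S100g, and by the rule of choice all 3 estrus libraries lay beneath it. Slc5a11, a sodium-coupled inositol transporter, had 0.15, 1.91 and 0.45 FPKM in estrus and 7.69, 18.9 and 15.7 FPKM in diestrus, with a log2 fold change of -3.07 ± 0.47 and of -2.96 without estrus replicate 3. The glucose transporter gene Slc2a12 had 6.05, 2.90 and 4.80 FPKM in estrus and 11.5, 40.3 and 36.9 FPKM in diestrus, with -2.31 ± 0.50 and -2.36. The metallothionein gene Mt2, whose product binds zinc and copper, had 107, 322 and 266 FPKM in estrus and 653, 1206 and 932 FPKM in diestrus, a log2 fold change of -2.10 ± 0.45 and of -2.28 without estrus replicate 3.

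Acod1, Myd88, Ptk2b and Jazf1 were the other leading lower genes described here. Acod1, which makes itaconate and is induced by progesterone in the uterine epithelium, had 0.14, 3.67 and 5.60 FPKM in estrus and 27.0, 51.5 and 54.1 FPKM in diestrus, a log2 fold change of -3.72 ± 0.66 and of -4.23 without estrus replicate 3. Myd88, the adaptor of Toll-like and interleukin-1 receptors, had 24.6, 32.3 and 20.8 FPKM in estrus and 68.2, 139 and 208 FPKM in diestrus (-2.26 ± 0.43, and -2.12 without estrus replicate 3). The tyrosine kinase gene Ptk2b, whose estrus values were close to each other, had 17.2, 15.7 and 18.2 FPKM in estrus and 39.3, 59.2 and 42.5 FPKM in diestrus (-1.40 ± 0.24, and -1.44). Jazf1, which encodes a zinc finger cofactor, had 3.01, 8.03 and 2.52 FPKM in estrus and 15.5, 16.8 and 21.2 FPKM in diestrus (-1.89 ± 0.39, and -1.63). In all 4 genes the 3 estrus values lay under the lowest diestrus value, by the rule that chose them.

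The 12 leading genes higher in estrus were Spink12, Gabrp, Plch1, Gpd1, Cpn1, Cdkn1a, Sprr2a1, Peg10, Cda, Rasgef1b, Sh2d4a and Ptpru. All 12 rose in the 90-library fit, which uses the same uterus values by which they were chosen, and 10 of them without estrus replicate 3. The other 2 were Gpd1, the cytosolic glycerol-3-phosphate dehydrogenase gene (adjusted p with limma 0.222 without that library), and Cdkn1a, which encodes the cell cycle inhibitor p21 (0.0581). Spink12, a gene of the Kazal-type protease inhibitors, had 46.5, 26.1 and 245 FPKM in estrus and 2.32, 1.66 and 0 FPKM in diestrus, a log2 fold change of 5.04 ± 0.85 and of 4.12 without estrus replicate 3. Gabrp, the pi subunit of GABA-A receptors, had 127, 34.2 and 92.3 FPKM in estrus and 7.32, 14.3 and 0.91 FPKM in diestrus (3.59 ± 0.82, and 3.43). Estrus replicate 2 was the lowest estrus library for both genes, and it lay above the 3 diestrus libraries by the rule that chose them.

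Cdkn1a had 29.4, 26.2 and 44.9 FPKM in estrus and 18.4, 6.31 and 5.68 FPKM in diestrus, a log2 fold change of 1.78 ± 0.46 and of 1.55 without estrus replicate 3. Cpn1, the catalytic subunit of carboxypeptidase N, which trims kinins and complement fragments, had 11.1, 4.17 and 6.65 FPKM in estrus and 2.26, 1.30 and 0.3 FPKM in diestrus (1.87 ± 0.47, and 1.89). The imprinted gene Peg10 had 5.53, 2.31 and 8.87 FPKM in estrus and 0.98, 0.71 and 0.95 FPKM in diestrus (1.67 ± 0.44, and 1.31), its diestrus libraries being nearly equal. Gpd1 had a log2 fold change of 1.40 ± 0.35, and 1.22 without estrus replicate 3, and it was not called either when estrus replicate 1 or diestrus replicate 3 was left out. The remaining genes had log2 fold changes of 1.45 ± 0.35 for the phospholipase C gene Plch1, 1.37 ± 0.37 for the cytidine deaminase gene Cda, 1.48 ± 0.40 for the receptor tyrosine phosphatase gene Ptpru, 1.52 ± 0.41 for the exchange factor gene Rasgef1b and 1.41 ± 0.38 for the SH2 adaptor gene Sh2d4a. Without estrus replicate 3 these were 1.32, 1.25, 1.27, 1.14 and 1.38. In Sh2d4a the estrus libraries were within 1 FPKM of each other, at 16.2, 16.1 and 17.1, whereas the diestrus libraries spread over 8.61, 7.08 and 2.66, and with diestrus replicate 3 left out it had 0.99 and was not called.

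**Figure D2:**
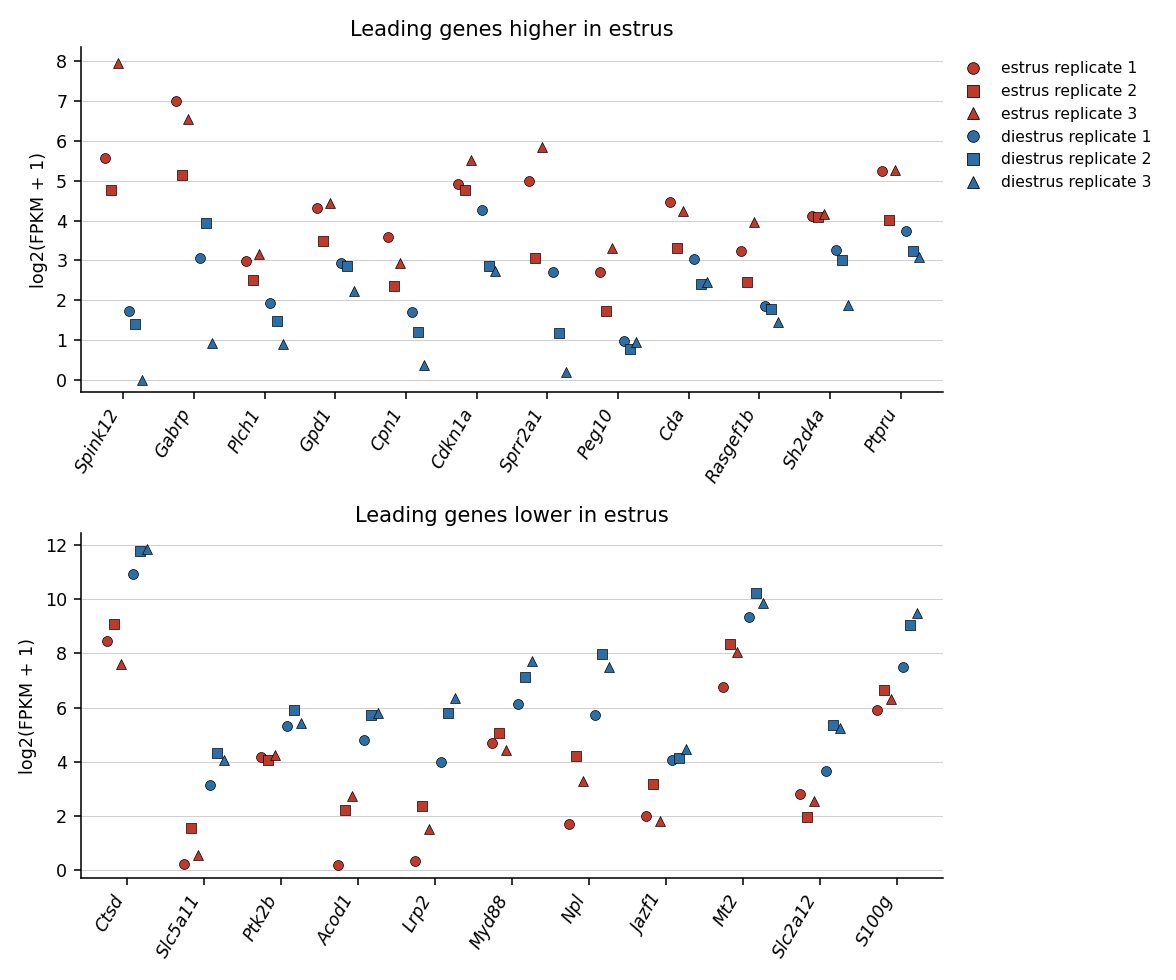
log2(FPKM + 1) (y axis) of the 12 leading genes higher in estrus (upper panel) and 11 of those lower in estrus (lower panel) in each uterus library, red for estrus and blue for diestrus, with 1 marker shape per replicate. In each of the 23 genes the 3 estrus points lie entirely above or entirely below the 3 diestrus points, by the rule that chose them, and estrus replicate 2 is often the estrus point nearest to diestrus.

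Sprr2a1, which encodes a small proline-rich protein of the cornified envelope, had 30.7, 7.34 and 56.4 FPKM in estrus and 5.55, 1.27 and 0.15 FPKM in diestrus (3.26 ± 0.86, and 2.66 without estrus replicate 3). Its neighbour Sprr2a2 had the same 3 diestrus values, so that reads may have been split between both copies. The sum of the 2 genes was 40.9, 7.34 and 58.2 FPKM in estrus and 11.1, 2.54 and 0.3 FPKM in diestrus. For the sum, the log2 fold change was 2.85, and 2.29 without estrus replicate 3, and estrus replicate 2 fell under diestrus replicate 1, so the phases overlapped. The separate value of Sprr2a1 is uncertain for this reason.

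The sequence before the start of 3 leading genes is shown, for Ctsd and Mt2 because letters known from lysosomal and metal-induced genes can be looked for there, and for Sprr2a1 because its copy cannot be told from it there. Each run is the 250 bases before the annotated start, 5′ to 3′ on the gene's strand, from RefSeq for GRCm38.p6. For Ctsd, at chr7:142387828-142388077 on the minus strand, capitals mark TCACGTGA, the palindrome at the core of the element shared by many lysosomal genes. For Mt2, at chr8:94172368-94172617 on the plus strand, capitals mark the 5 matches on either strand to TGCNCNC, a loose form of the core of the metal response element. For Sprr2a1, at chr3:92215585-92215834 on the plus strand, no base is in capitals, and the 250 bases before the start of Sprr2a2, at chr3:92250397-92250646, differed from it at 0 bases.
Ctsd: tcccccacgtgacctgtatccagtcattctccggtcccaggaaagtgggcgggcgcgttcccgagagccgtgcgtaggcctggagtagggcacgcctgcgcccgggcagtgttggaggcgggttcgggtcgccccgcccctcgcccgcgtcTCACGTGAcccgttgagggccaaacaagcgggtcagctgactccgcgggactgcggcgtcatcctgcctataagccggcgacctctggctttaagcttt
Mt2: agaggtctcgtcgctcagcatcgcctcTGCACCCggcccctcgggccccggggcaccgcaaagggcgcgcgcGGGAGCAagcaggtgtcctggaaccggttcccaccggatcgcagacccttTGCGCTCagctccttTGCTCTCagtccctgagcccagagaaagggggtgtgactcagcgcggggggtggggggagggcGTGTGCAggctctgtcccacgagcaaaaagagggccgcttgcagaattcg
Sprr2a1: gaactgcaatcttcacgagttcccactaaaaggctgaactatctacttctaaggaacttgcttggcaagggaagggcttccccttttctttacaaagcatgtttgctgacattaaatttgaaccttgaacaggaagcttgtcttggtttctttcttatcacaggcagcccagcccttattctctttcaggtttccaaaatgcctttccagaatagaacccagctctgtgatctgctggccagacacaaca

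The motifs below were searched on both strands in the 250 bases before the start. Among 32851 RefSeq promoters, TCACGTGA was present in 0.785%, and among the 18 leading genes with an entry it was present in 1, Ctsd, from base 152 of the run. TGCNCNC was present in 44.4% of all promoters and in 11 of the 18. The palindrome GGTCANNNTGACC of the estrogen response element was present in 0.0639% of promoters and GNACANNNTGTNC, of the progesterone and glucocorticoid response element, in 0.387%, and both in 0 of the 18. A match is a run of letters and not a site of binding, and the absence of a match says only that these letters are not in this window.

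Genes that estrogen is known to induce in the secretory epithelium were mostly higher in estrus. Of 36 tested members, 31 were higher and 5 lower, with a median log2 fold change of 1.39, 1.33 without estrus replicate 3 and 1.73 with estrus replicate 2 left out. The phases did not overlap, with a fold of at least 1, for 6 members, all higher, where 1.17% of all tested genes did so. In the 90-library fit 20 rose and 2 fell, against 4.21% and 2.46% of all tested genes, and without estrus replicate 3, 14 rose and 1 fell, against 1.4% and 1.48%. The mean log2(FPKM + 1) of the list was 6.19, 4.74 and 5.94 in estrus and 4.87, 4.31 and 3.11 in diestrus. Diestrus replicate 3 was the lowest library and diestrus replicate 1 was above estrus replicate 2, so the list's level overlapped between the phases. Diestrus replicate 3 was also the library lowest in simple epithelium markers, at 5.66 against 6.49 to 6.92 in the others, and the median of the secretory list was 1.16 with it left out.

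The most abundant member was Sprr2f, a further small proline-rich gene long used as a marker of estrogen action in the uterus, with 8454, 1109 and 5522 FPKM in estrus and 2199, 841 and 77.8 FPKM in diestrus. Lcn2, which encodes the iron-sequestering lipocalin 2, had 3989, 177 and 1245 FPKM in estrus and 195, 56.2 and 10.2 FPKM in diestrus. In both genes diestrus replicate 1 was above estrus replicate 2, and estrus replicates 1 and 3 were above all other libraries. The log2 fold changes were 2.82 ± 1.28 for Sprr2f and 4.26 ± 1.36 for Lcn2, and 2.54 and 4.07 without estrus replicate 3, and both rose in the 90-library fit with limma without that library too (adjusted p = 0.023 and 0.0011). With diestrus replicate 3 left out Sprr2f had 1.45 and was not called. Sprr2b had 38.6, 5.25 and 109.6 FPKM in estrus and 7.13, 1.2 and 0.62 FPKM in diestrus (3.29 ± 1.08, and 2.36). The protease inhibitor gene Wfdc2, the next in abundance, had 1059, 1036 and 322 FPKM in estrus and 1105, 1430.4 and 503 FPKM in diestrus, with a log2 fold change of -0.39 ± 0.57 that turned to 0.18 without estrus replicate 3. The genes of the Sprr2 cluster are close copies, and may share reads, so their single values are uncertain.

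Igf1, the growth factor that the stroma makes under estrogen, went the other way from most of this list. It had 9.78, 18.0 and 7.33 FPKM in estrus and 38.4, 17.1 and 46.1 FPKM in diestrus, a log2 fold change of -1.43 ± 0.46 and of -1.17 without estrus replicate 3, and it fell in the 90-library fit with limma in both cases (adjusted p = 5.43e-05 and 0.00476). Estrus replicate 2 lay slightly above diestrus replicate 2, which made the phases overlap.

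**Figure D3:**
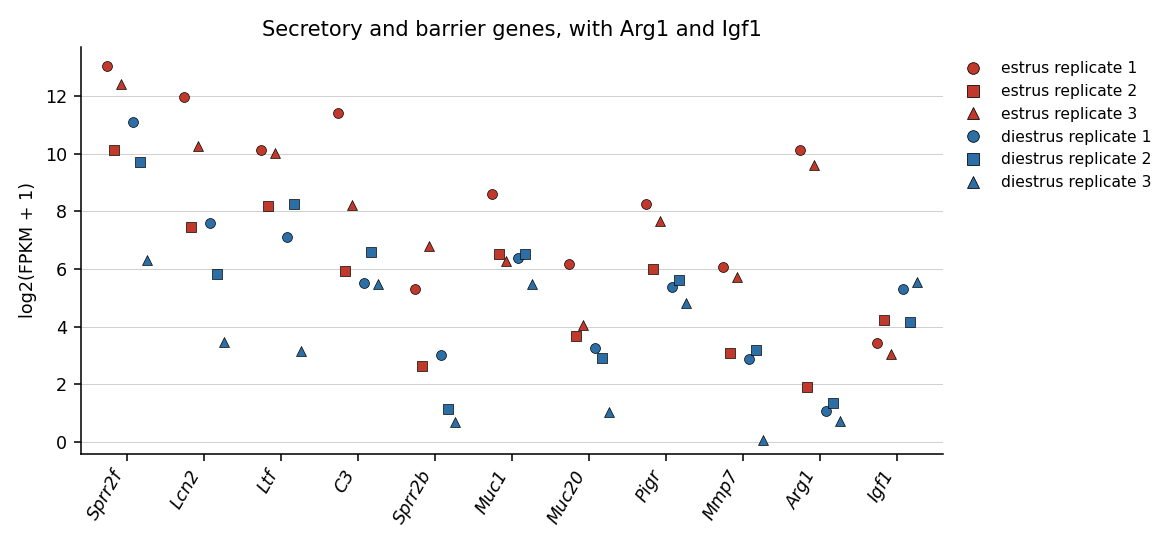
log2(FPKM + 1) (y axis) of 11 secretory, barrier, immune and growth factor genes in each uterus library, red for estrus and blue for diestrus, with 1 marker shape per replicate. Estrus replicates 1 and 3 are above the 3 diestrus libraries for Sprr2f, Lcn2, Ltf, C3 and Arg1, while estrus replicate 2 lies among or near the diestrus libraries, and Igf1 is lower in estrus replicates 1 and 3 than in each diestrus library.

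Barrier and antimicrobial genes were mostly higher in estrus, by less without estrus replicate 3. The mean log2(FPKM + 1) of the tested members was 4.03, 3.07 and 5.41 in estrus and 2.87, 2.75 and 2.23 in diestrus. Of 33 listed members 20 were tested, and 18 of these were higher in estrus. Their median log2 fold change was 1.58 and became 0.447 without estrus replicate 3. A gene near 0 in diestrus can pass the filter through its estrus values alone, and without the filter the median was 0.709. In the 90-library fit 13 rose but 3 without estrus replicate 3, against 4.21% and 1.4% of all tested genes. Those 3 were Lcn2, Muc4 and Muc20. Ltf, which encodes lactotransferrin, had 1117, 292 and 1043 FPKM in estrus and 138, 308 and 7.96 FPKM in diestrus (3.26 ± 1.28, and 2.97 without estrus replicate 3). Pigr, the receptor that carries polymeric immunoglobulin across epithelium, had 306, 63.3 and 201 FPKM in estrus and 41.1, 48.7 and 27.6 FPKM in diestrus, without overlap (2.02 ± 0.57, and 1.84). Among the membrane mucins, the values were 389, 91.8 and 77.7 FPKM in estrus and 83.3, 92.1 and 44.1 FPKM in diestrus for Muc1 (1.003 ± 0.64, and 1.43) and 72.2, 11.7 and 15.7 FPKM in estrus and 8.64, 6.59 and 1.06 FPKM in diestrus for Muc20 (2.23 ± 0.82, and 2.52). Muc20 did not overlap between the phases and had 1.45 with estrus replicate 1 left out. Muc4 had 1.37 then, from 2.23. For Muc1 estrus replicate 1 alone was above all diestrus libraries.

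Complement and coagulation genes showed no common direction, with 21 of 38 tested members higher and a median log2 fold change of 0.084, or 0.203 without estrus replicate 3. Within them, C3 and Cfb, the central protein and the factor B of complement, were higher in estrus replicates 1 and 3 than in each diestrus library. Cfb had 322, 53.7 and 88.2 FPKM in estrus and 35.7, 64.2 and 25.3 FPKM in diestrus (1.55 ± 0.68, and 1.74 without estrus replicate 3), and C3 had a log2 fold change of 2.65 ± 1.25, and of 2.80 without it. With estrus replicate 1 left out these were 0.81 for Cfb and 1.21 for C3. The coagulation genes F5, encoding factor V, with 3.86, 2.84 and 2.12 FPKM in estrus and 0.48, 0.19 and 2.08 FPKM in diestrus, and F2r, encoding a thrombin receptor, with 3.00, 5.56 and 2.10 FPKM in estrus and 6.42, 7.07 and 29.1 FPKM in diestrus, did not overlap, F5 being higher and F2r lower in estrus. Serpine2, an inhibitor of thrombin and plasminogen activators, had 9.74, 19.7 and 8.88 FPKM in estrus and 35.1, 24.4 and 25.7 FPKM in diestrus (-1.16 ± 0.35, and -0.96).

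Progesterone-responsive genes were mostly lower in estrus. Of 36 tested members, 30 were lower and 6 higher, with a median log2 fold change of -0.835, -1.01 without estrus replicate 3. Leaving out estrus replicate 2 gave -1.01 too, and leaving out diestrus replicate 3 gave -0.488. The phases did not overlap, with a fold of at least 1, for 9 lower members and 1 higher member, where 1.23% and 1.17% of all tested genes did so. In the 90-library fit 15 fell and 3 rose, against 2.46% and 4.21% of all tested genes, and without estrus replicate 3, 11 fell and 3 rose, against 1.48% and 1.4%. The mean log2(FPKM + 1) of the list was 3.73, 4.26 and 3.94 in estrus and 4.58, 4.90 and 5.12 in diestrus, so that each estrus library stood under each diestrus library.

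Acod1, Lrp2 and Npl, described above, had the smallest p of the list. Hoxa11 and Hoxa10, homeobox genes needed for stromal function and fertility, were next among those named, with 12.5, 31.7 and 8.06 FPKM in estrus and 44.5, 47.0 and 145 FPKM in diestrus for Hoxa11 and 23.9, 39.8 and 7.55 FPKM in estrus and 48.1, 58.4 and 170.1 FPKM in diestrus for Hoxa10. Their log2 fold changes were -2.10 ± 0.62 and -1.95 ± 0.69, and -1.70 and -1.31 without estrus replicate 3, and both fell in the 90-library fit in both cases. Diestrus replicate 3 was the highest library for both. Hand2, a stromal transcription factor gene induced by progesterone, had 7.68, 16.2 and 6.78 FPKM in estrus and 17.8, 19.4 and 68.4 FPKM in diestrus, without overlap (-1.505 ± 0.57, and -1.29). It fell in the 90-library fit with limma (adjusted p = 0.0313), and had an adjusted p of 0.229 without estrus replicate 3. Its log2 fold change was -0.90 with diestrus replicate 3 left out.

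The most abundant members of the list were less uniform, and the 3 that rose in the 90-library fit, with and without estrus replicate 3, were Prap1, Lifr and Spp1. Prap1, a secreted epithelial protein gene and the most abundant, had 7050.2, 188 and 904 FPKM in estrus and 90.6, 482 and 4.30 FPKM in diestrus. Estrus replicate 1 was far above the rest, the phases overlapped, and the log2 fold change was 4.11 ± 1.85, 4.23 without estrus replicate 3 and 2.34, with no call, without diestrus replicate 3. The glutathione peroxidase gene Gpx3 had 356, 127 and 283 FPKM in estrus and 184, 128 and 196 FPKM in diestrus (0.49 ± 0.41, and 0.35). Msx1, a homeobox gene of the receptive epithelium, had 40.4, 395 and 56.2 FPKM in estrus and 314, 566 and 212 FPKM in diestrus (-1.78 ± 0.85, and -1.39 without estrus replicate 3). For Msx1 estrus replicates 1 and 3 were the low libraries, and estrus replicate 2 was within the diestrus range, and with estrus replicate 1 left out Msx1 had -1.16. The receptor gene for leukemia inhibitory factor, Lifr, was the member that lay entirely higher in estrus, with 27.2, 11.8 and 13.9 FPKM in estrus and 7.75, 9.77 and 5.09 FPKM in diestrus (1.08 ± 0.38, and 1.19), and the phases overlapped for Prap1 and Spp1. The phosphoprotein gene Spp1 had 47.1, 24.8 and 15.9 FPKM in estrus and 19.9, 7.14 and 4.36 FPKM in diestrus (1.51 ± 0.58, and 1.86). With estrus replicate 1 left out Lifr had 0.73 and Spp1 1.11, with diestrus replicate 3 left out 0.85 and 1.08, and neither was called.

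The hedgehog ligand gene Ihh and the target genes Ptch1 and Gli1 of the pathway were lower in estrus. Of 11 tested members, 4 fell in the 90-library fit with and without estrus replicate 3, among them Ihh, Ptch1 and Gli1, and 0 rose, where 2.46% and 1.48% of all tested genes fell in these fits. Ihh, the ligand, had 0.39, 54.5 and 14.5 FPKM in estrus and 55.2, 83.2 and 42.6 FPKM in diestrus (-2.48 ± 1.21, and -2.75 without estrus replicate 3), with estrus replicate 1 as the lowest library and estrus replicate 2 within the diestrus range. Ptch1, the receptor and itself a target, had 5.45, 10.2 and 7.54 FPKM in estrus and 13.6, 14.6 and 30.7 FPKM in diestrus, without overlap (-1.18 ± 0.38, and -1.19). The target and transcription factor gene Gli1 had 1.10, 24.4 and 2.75 FPKM in estrus and 35.9, 21.7 and 69.5 FPKM in diestrus (-2.73 ± 0.92, and -2.41), with estrus replicate 2 between the diestrus libraries. With estrus replicate 1 left out Ihh had -1.01, and Ptch1 had -0.98 then and -0.83 with diestrus replicate 3 left out, and both of these Ptch1 values were under the limit of 1 for a call.

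The signal transducer gene Smo had 25.3, 36.3 and 40.0 FPKM in estrus and 32.0, 26.8 and 38.5 FPKM in diestrus (log2 fold change 0.049 ± 0.27, and -0.08), and its phases overlapped. The Gli2 gene, which encodes an activator of the pathway, had 2.44, 2.80 and 3.06 FPKM in estrus and 3.88, 1.92 and 5.22 FPKM in diestrus (-0.25 ± 0.35, and -0.30), and Gli3, whose product is mostly a repressor, 1.21, 1.13 and 0.55 FPKM in estrus and 1.21, 1.12 and 3.36 FPKM in diestrus (-0.50 ± 0.42, and -0.33). The inhibitor gene Sufu had 7.11, 9.15 and 4.72 FPKM in estrus and 8.98, 9.32 and 14.3 FPKM in diestrus (-0.58 ± 0.31, and -0.36 without estrus replicate 3). These 4 genes did not reach a log2 fold change of 1, and their phases overlapped. Among the co-receptors, Gas1 had a log2 fold change of -0.65 ± 0.53, Boc of 0.80 ± 0.62 and Cdon of 0.043 ± 0.30, each with overlap, and -0.12, 0.25 and 0.24 without estrus replicate 3. Shh was listed at 0 in all 6 libraries, Dhh had 0.19 to 1.49 FPKM and the inhibitor gene Hhip 0.02 to 0.46 FPKM, and these 3 were not tested. Over the 11 members the median log2 fold change was -0.582, -0.333 without estrus replicate 3 and -0.773 without estrus replicate 2.

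**Figure D4:**
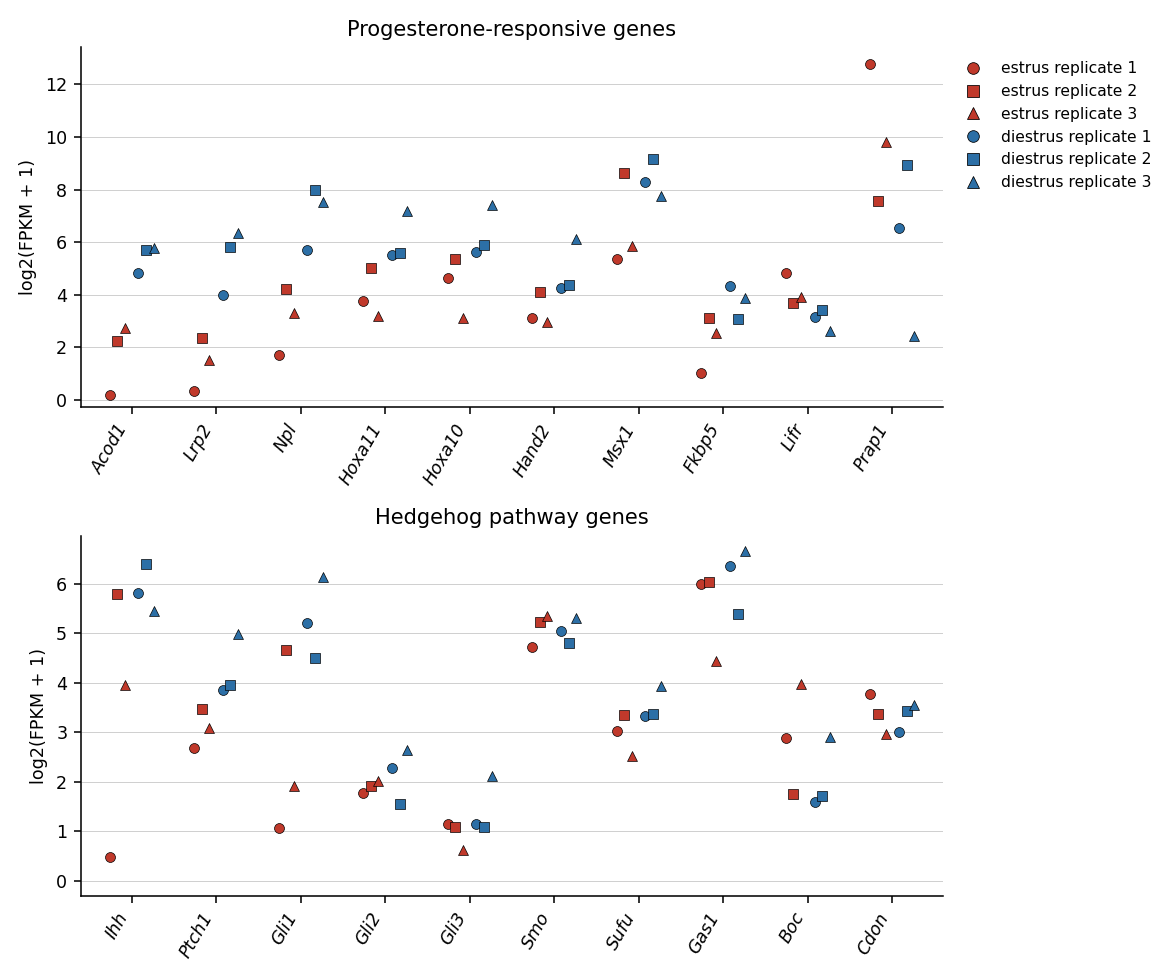
log2(FPKM + 1) (y axis) of 10 progesterone-responsive genes (upper panel) and 10 tested hedgehog pathway genes (lower panel) in each uterus library, red for estrus and blue for diestrus, with 1 marker shape per replicate. Acod1, Lrp2, Npl, Hoxa11, Hoxa10, Hand2 and Ptch1 have all 3 estrus points under the diestrus points and Lifr has them above, while Ihh and Gli1 have estrus replicate 2 among the diestrus points.

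The steroid receptor genes and their partners overlapped between the phases in all 16 tested members. Of all tested genes, 3.25% lay entirely higher and 4.67% entirely lower. Of the 16, 13 were lower and 3 higher in estrus, with a median log2 fold change of -0.164, or -0.192 without estrus replicate 3. In the 90-library fit 3 fell and 0 rose, against 2.46% and 4.21% of all tested genes. Without estrus replicate 3, 1 fell and 0 rose, against 1.48% and 1.4%. Esr1 had 69.7, 61.1 and 41.9 FPKM in estrus and 60.6, 70.8 and 53.8 FPKM in diestrus, a log2 fold change of -0.12 ± 0.27, and of 0.088 without estrus replicate 3, with overlap of the phases. Pgr, itself induced by estrogen in stroma and muscle, had 11.6, 68.8 and 10.2 FPKM in estrus and 53.5, 98.7 and 32.7 FPKM in diestrus (-1.40 ± 0.76, and -0.94 without estrus replicate 3). Estrus replicate 2 was above diestrus replicates 1 and 3, and Pgr fell in the 90-library fit with limma (adjusted p = 0.0048), with an adjusted p of 0.178 without estrus replicate 3. It was not called without estrus replicate 1 or diestrus replicate 2 either. Esr2, the gene of the other estrogen receptor, had 0.08 to 0.42 FPKM and was not tested. Fkbp5, a steroid-induced chaperone of the receptors, had 1.04, 7.70 and 4.78 FPKM in estrus and 18.9, 7.35 and 13.7 FPKM in diestrus (-1.52 ± 0.58, and -1.68), and the membrane estrogen receptor gene Gper1 0.65, 4.51 and 0.55 FPKM in estrus and 3.28, 15.9 and 4.71 FPKM in diestrus (-1.62 ± 0.68, and -1.30). The most abundant partners, the chaperone gene Fkbp4 and the progesterone-binding membrane component gene Pgrmc1, had log2 fold changes of -0.78 ± 0.59 and -0.58 ± 0.31, and of -0.49 and -0.38 without estrus replicate 3.

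Genes of uterine identity and of the stroma were mostly lower in estrus, by less when estrus replicate 3 was left out. Of 15 tested identity genes, 13 were lower, with a median log2 fold change of -1.19, -0.622 without estrus replicate 3 and -1.63 when estrus replicate 2 was left out. In the 90-library fit 9 fell, against 2.46% of all tested genes, and 4 of these, Hoxa10, Hoxa11, Msx1 and Sox17, did so without estrus replicate 3, against 1.48%. Sox17, a transcription factor gene of the uterine epithelium, had 31.6, 118 and 97.6 FPKM in estrus and 103, 265 and 132 FPKM in diestrus (-1.09 ± 0.57, and -1.31), and with estrus replicate 1 left out -0.51 and no call. Hoxd11 had 5.66, 7.18 and 1.03 FPKM in estrus and 8.44, 9.81 and 21.8 FPKM in diestrus (-1.47 ± 0.60, and -0.84). Of 16 tested stromal genes 13 were lower, with a median of -0.727 and of -0.134 without estrus replicate 3. Hoxa10, Hoxa11, Hand2 and Tcf21 belong to both the identity and the stromal list. Hoxa10, Hoxa11 and Hand2 are also among the progesterone-responsive genes, so these lists are not separate results. Thy1, a surface glycoprotein gene of fibroblasts, had 25.0, 61.3 and 16.5 FPKM in estrus and 94.2, 74.0 and 128 FPKM in diestrus, without overlap (-1.67 ± 0.49, and -1.27). Stromal markers had a mean log2(FPKM + 1) of 5.87, 5.29 and 4.22 in estrus and 5.73, 5.32 and 6.61 in diestrus, estrus replicate 3 being the lowest, and their part in these differences was not tested.

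Collagen and matrix genes, which stromal cells make, were mostly lower in estrus. Of 27 tested members 22 were lower in estrus, with a median log2 fold change of -0.83 that became -0.188 without estrus replicate 3, and the 8 that fell in the 90-library fit were reduced to 1 without it, Col12a1, against 2.46% and 1.48% of all tested genes. Col12a1, a collagen gene of fibril surfaces, had 1.12, 2.57 and 1.00 FPKM in estrus and 3.75, 7.63 and 5.76 FPKM in diestrus (-1.40 ± 0.37, and -1.24), and the proteoglycan gene Vcan 2.86, 3.63 and 0.87 FPKM in estrus and 6.12, 5.38 and 15.3 FPKM in diestrus (-1.49 ± 0.49, and -1.10), both without overlap. The abundant members Dcn, Col1a1 and Col3a1 overlapped, with log2 fold changes of 0.054 ± 0.57, -0.83 ± 0.80 and -1.03 ± 0.90, and of 0.41, -0.081 and -0.19 without estrus replicate 3. Among 22 proteases of the matrix and their inhibitors 10 were higher, with a median of -0.191, and of 0.126 without estrus replicate 3. Mmp7, the epithelial matrilysin, had 66.4, 7.46 and 51.5 FPKM in estrus and 6.42, 8.07 and 0.06 FPKM in diestrus (2.90 ± 1.05, and 2.53) and rose in the 90-library fit with and without estrus replicate 3, its log2 fold change being 1.92 without diestrus replicate 3.

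Wnt pathway genes were divided evenly, 17 higher and 17 lower of 34 tested, with a median log2 fold change of -0.037, or 0.003 without estrus replicate 3. The phases did not overlap for 4 members, all lower in estrus, where 4.67% of all tested genes lay entirely lower. Wnt5a, the ligand of the stroma, had 16.7, 42.6 and 17.1 FPKM in estrus and 57.2, 53.6 and 46.0 FPKM in diestrus (-1.14 ± 0.39, and -0.93 without estrus replicate 3). Lef1, a transcription factor of the pathway and a target, had 0.58, 3.02 and 1.98 FPKM in estrus and 3.08, 5.78 and 18.7 FPKM in diestrus (-1.62 ± 0.63, and -1.70), and Sfrp2, a secreted Wnt modulator, 5.17, 10.9 and 5.76 FPKM in estrus and 11.6, 16.9 and 48.7 FPKM in diestrus (-1.5 ± 0.54, and -1.39). The epithelial ligand Wnt7a had 2.32, 59.1 and 3.86 FPKM in estrus and 52.2, 44.8 and 8.49 FPKM in diestrus (-1.53 ± 1.18, and -1.01), with estrus replicate 2 as the highest library and diestrus replicate 3 near the low estrus libraries. In the 90-library fit 5 members fell and 0 rose, against 2.46% and 4.21% of all tested genes. Without estrus replicate 3, 2 fell and 0 rose, against 1.48% and 1.4%. Of the 5, Lef1 also fell without estrus replicate 3, but was not called without estrus replicate 1 or without diestrus replicate 3 (-0.98).

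Genes expressed in uterine glands were mixed, with 7 of 11 tested members lower in estrus and a median log2 fold change of -0.463, or -1.14 without estrus replicate 3. Wfdc1, a gene of the whey acidic protein family, had 9.95, 18.5 and 8.64 FPKM in estrus and 33.6, 28.5 and 94.2 FPKM in diestrus, without overlap (-1.85 ± 0.51, and -1.65). The glandular chemokine gene Cxcl15 had 0.64, 58.4 and 5.42 FPKM in estrus and 42.9, 22.8 and 24.8 FPKM in diestrus (-1.81 ± 1.18, and -1.61), with estrus replicate 2 as the highest library. Wfdc3, of the same family as Wfdc1, had 0.67, 3.63 and 12.7 FPKM in estrus and 9.95, 6.58 and 30.7 FPKM in diestrus (-1.54 ± 0.84, and -2.31). The 4 genes that fell in the 90-library fit, Spink1 and these 3, did so without estrus replicate 3 as well, where 2.46% and 1.48% of all tested genes fell. Spink1 had -0.28 and Wfdc1 -1.33 without diestrus replicate 3, Cxcl15 had -0.62 and Wfdc3 -0.79 without estrus replicate 1, and none of these was called then.

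Cell cycle genes varied widely between the libraries of a phase. Of 42 tested members 36 were lower in estrus, with a median log2 fold change of -0.517, but it was -0.017 without estrus replicate 3 and -1.52 without estrus replicate 2. Pcna, the sliding clamp of replication, had 33.1, 247 and 29.8 FPKM in estrus and 205, 62.0 and 64.5 FPKM in diestrus, and Ccnd1, the cyclin of the early cycle, 10.1, 104 and 21.9 FPKM in estrus and 144, 22.0 and 26.1 FPKM in diestrus. The topoisomerase gene Top2a had 3.25, 68.0 and 2.06 FPKM in estrus and 41.9, 11.1 and 27.6 FPKM in diestrus and the helicase subunit gene Mcm3 3.24, 70.2 and 3.15 FPKM in estrus and 71.2, 13.8 and 18.7 FPKM in diestrus. In these 4 genes estrus replicate 2 and diestrus replicate 1 were the highest libraries. Cdkn1a, the inhibitor among the leading genes, was the member without overlap, where 3.25% of all tested genes lay entirely higher and 4.67% entirely lower.

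Genes of lysosomes and cell death were divided. Ctsd fell, as described, while the cathepsin genes Ctsl and Ctsb were not lower. Ctsl, encoding cathepsin L, had 719.8, 56.4 and 158 FPKM in estrus and 54.9, 62.2 and 67.1 FPKM in diestrus (1.59 ± 0.83, and 1.71 without estrus replicate 3) and rose in the 90-library fit with and without that library. With estrus replicate 1 left out it had 0.62 and was not called. Ctsb, encoding cathepsin B, had 2337, 853 and 1039 FPKM in estrus and 1205, 943 and 849.9 FPKM in diestrus (0.37 ± 0.39, and 0.51), and its phases overlapped. Pmaip1, which encodes the death-promoting protein Noxa, had 22.9, 16.8 and 16.6 FPKM in estrus and 16.2, 13.7 and 2.34 FPKM in diestrus, without overlap (1.05 ± 0.61, and 1.13), and had 0.30 with diestrus replicate 3 left out. Of the 21 tested members 13 were higher, with a median log2 fold change of 0.2 and of -0.001 without estrus replicate 3.

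Interferon-stimulated genes were higher in estrus in 18 of 19 tested members, with a median log2 fold change of 0.689 and of 0.605 without estrus replicate 3. Ifit3, an antiviral effector gene, had 42.7, 7.78 and 30.8 FPKM in estrus and 3.02, 7.39 and 9.48 FPKM in diestrus (1.70 ± 0.65, and 1.47), and Ifi44 28.4, 11.2 and 16.8 FPKM in estrus and 4.60, 11.6 and 7.79 FPKM in diestrus (1.12 ± 0.43, and 1.15). Ifit3 rose in the 90-library fit with limma (adjusted p = 0.0303) and was at an adjusted p of 0.22 without estrus replicate 3. The abundant members Bst2, Oasl2 and Ifi27 overlapped between the phases, with log2 fold changes of 0.18 ± 0.33, 0.80 ± 0.49 and 0.20 ± 0.27, and of 0.43, 0.67 and 0.21 without estrus replicate 3. The phases did not overlap for 3 members, each with a log2 fold change under 1, where 3.25% of all tested genes lay entirely higher.

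Chemokines and cytokines that attract granulocytes were higher in 20 of 26 tested members. Their median log2 fold change was 0.492, 0.134 without estrus replicate 3 and 0.189 without the filter. Il1a, the alarmin interleukin-1 alpha, had 41.0, 0.72 and 19.1 FPKM in estrus and 0.41, 0.26 and 0.23 FPKM in diestrus, without overlap (3.13 ± 1.08, and 2.71), although estrus replicate 2 exceeded the diestrus libraries by less than 1 FPKM. Ccl28, a mucosal chemokine, had 30.1, 21.6 and 18.0 FPKM in estrus and 12.4, 8.91 and 2.03 FPKM in diestrus, also without overlap (1.68 ± 0.56, and 1.84). These 2 were the members that rose in the 90-library fit with and without estrus replicate 3, where 4.21% and 1.4% of all tested genes rose, and Ccl28 had 1.04 without diestrus replicate 3. Cxcl5, a neutrophil chemokine, had 0.3, 1.71 and 28.9 FPKM in estrus and 0.11, 0.53 and 0.4 FPKM in diestrus, so its log2 fold change of 1.82 ± 1.08 rested on estrus replicate 3 (0.49 without it). Of 26 listed neutrophil markers 11 were tested, with a median of 1.06 and of 0.28 without estrus replicate 3. Members can pass the filter through high estrus values, and without the filter the median was 0.361. The list holds Lcn2 and Ltf, given above among the secretory and barrier genes, so it does not stand for neutrophils alone.

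Arg1 and Cyp2s1 were called by the limma fit of the uterus libraries once estrus replicate 2 was left out, and are named here after their values were seen. Arg1, encoding the arginase that hydrolyses arginine, had 1112, 2.76 and 790.0 FPKM in estrus and 1.12, 1.57 and 0.65 FPKM in diestrus, a log2 fold change of 6.16 ± 2.03, of 4.96 without estrus replicate 3 and of 8.82 without estrus replicate 2. Cyp2s1, a cytochrome P450 gene of epithelia, had 38.9, 0.98 and 52.3 FPKM in estrus and 1.51, 1.93 and 2.39 FPKM in diestrus, with log2 fold changes of 2.47 ± 1.17, 1.61 and 3.98. In both, estrus replicates 1 and 3 were high and estrus replicate 2 was at the level of diestrus. That estrus replicate 2 lay with diestrus for these 2 genes follows from how they were chosen.

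Genes of prostaglandin synthesis and receptors were lower in estrus in 17 of 24 tested members, with a median log2 fold change of -0.231, or -0.205 without estrus replicate 3. Pla2g10, a secreted phospholipase that frees arachidonic acid, had 0.27, 1.91 and 3.03 FPKM in estrus and 4.43, 53.4 and 50.5 FPKM in diestrus, without overlap (-3.33 ± 0.93, and -3.69 without estrus replicate 3). The cyclooxygenase gene Ptgs1 had 7.20, 30.6 and 11.9 FPKM in estrus and 47.4, 71.0 and 22.0 FPKM in diestrus (-1.53 ± 0.60, and -1.42), and Ptger2, a receptor of prostaglandin E2, 2.10, 3.10 and 0.72 FPKM in estrus and 3.03, 11.6 and 8.22 FPKM in diestrus (-1.47 ± 0.52, and -1.12). These 3 fell in the 90-library fit with and without estrus replicate 3. In that fit 4 members fell and 3 rose, against 2.46% and 4.21% of all tested genes. Without estrus replicate 3, 3 fell and 1 rose, against 1.48% and 1.4%. Hpgds, the prostaglandin D synthase gene, had 9.72, 4.21 and 32.3 FPKM in estrus and 4.63, 2.91 and 3.91 FPKM in diestrus (1.37 ± 0.63, and 0.65), with estrus replicate 3 as the highest library.

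Ion and water transport genes were divided, with 18 of 29 tested members higher in estrus and a median log2 fold change of 0.324, which was -0.022 without estrus replicate 1. In the 90-library fit 7 rose and 5 fell, against 4.21% and 2.46% of all tested genes, and without estrus replicate 3 the numbers were 4 and 6, against 1.4% and 1.48%. S100g, given above, was among the lower members. Atp1b1, the beta subunit of the sodium pump, had 42.1, 71.3 and 76.8 FPKM in estrus and 106, 335 and 218 FPKM in diestrus, without overlap (-1.67 ± 0.46, and -1.83). Slc26a9, a chloride channel gene of epithelia, had 16.3, 11.2 and 10.2 FPKM in estrus and 7.33, 1.54 and 0.09 FPKM in diestrus, without overlap (2.23 ± 0.69, and 2.35), and rose in the 90-library fit in both cases. Atp12a, a proton pump gene, had 0.15, 1.08 and 0.18 FPKM in estrus and 1.99, 1.56 and 4.49 FPKM in diestrus (-1.30 ± 0.46, and -1.17), without overlap and lower in estrus.

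Markers of the other cell types of the tissue were compared in the same way. The 15 smooth muscle genes had a median log2 fold change of -0.15, and of 0.346 without estrus replicate 3. In the 90-library fit 0 of them were called, where 4.21% of all tested genes rose and 2.46% fell. Tagln, Acta2 and Myl9, the most abundant, had log2 fold changes of 0.36 ± 0.58, -0.26 ± 0.66 and 0.10 ± 0.56, which became 0.70, 0.29 and 0.46 without that library. Of 16 endothelial genes 15 were lower, with a median of -0.726 and of -0.243 without estrus replicate 3. Simple epithelium markers had a median of 0.374 over 20 genes, 0.232 without estrus replicate 3 and 0.051 without diestrus replicate 3, with Krt19 at 0.35 ± 0.76, Spint2 at 1.10 ± 0.45 and Cldn3 at -0.88 ± 0.32. The squamous and the oviduct and ciliated markers had medians of 1.83 and 1.52, which became 0.19 and 0.067 without estrus replicate 3. Of 29 tested oviduct and ciliated genes, 18 rose in the 90-library fit and 0 without estrus replicate 3. Of 33 listed squamous genes 23 were tested, and 10 rose and 1 without that library, Sprr1a. Of all tested genes 4.21% and 1.4% rose. Members of both lists can pass the filter through estrus replicate 3 alone, so these counts do not stand apart from that library. Without the filter the squamous median was 1.44. Sprr1a had 161, 20.5 and 2345 FPKM in estrus and 10.7, 2.32 and 0.23 FPKM in diestrus (5.80 ± 1.66, and 4.03).

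**Figure D5:**
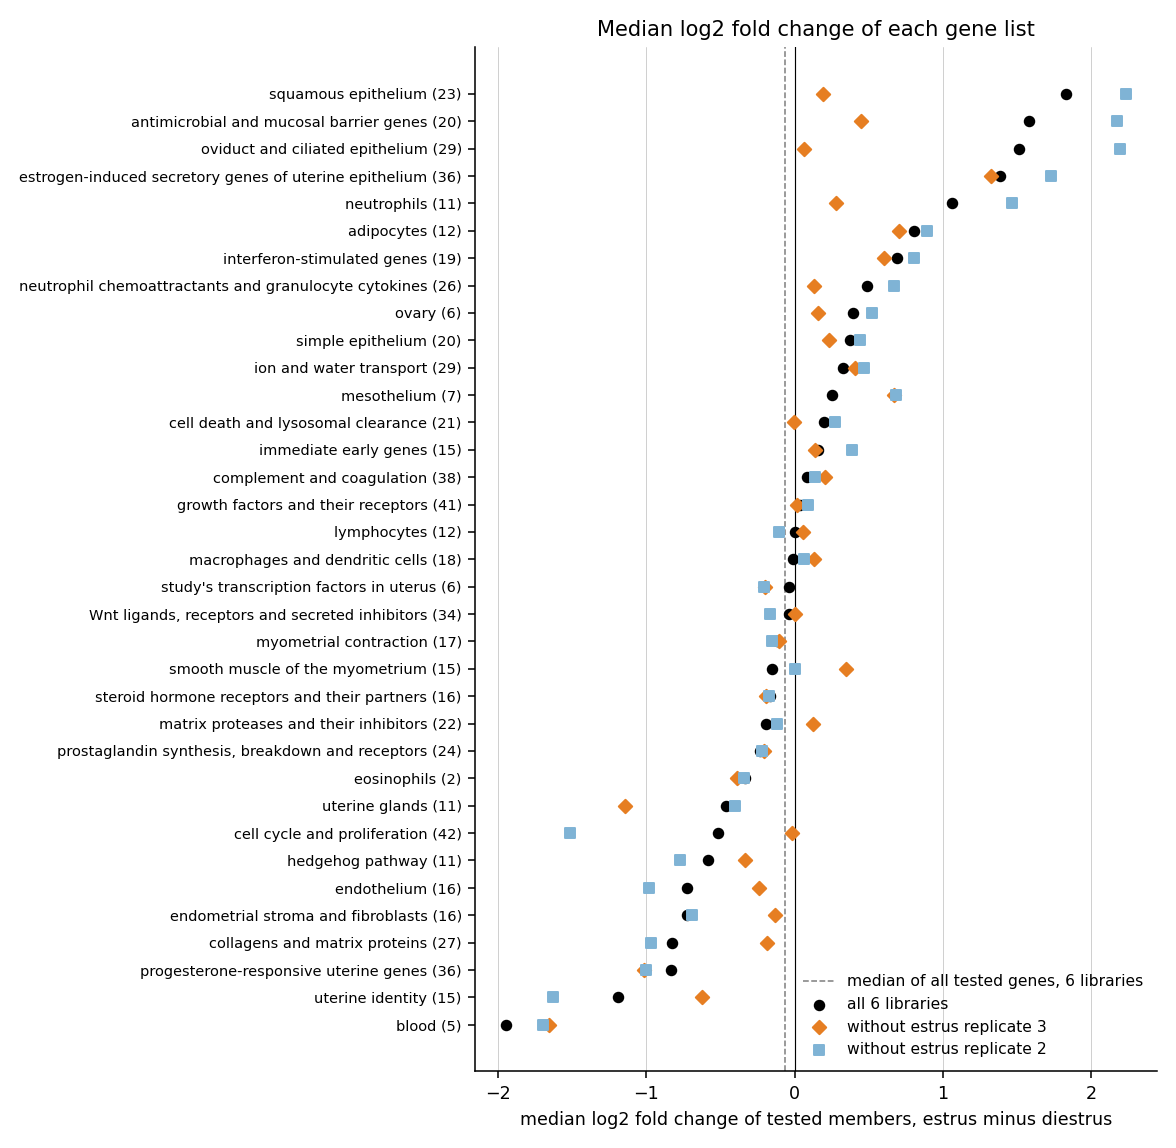
Median log2 fold change (x axis, estrus minus diestrus) of the tested members of 35 gene lists, with the number tested in brackets. Black points use all 6 uterus libraries, orange points leave out estrus replicate 3 and blue points estrus replicate 2, and the dashed line is the median of all tested genes, -0.067. The estrogen-induced secretory and the progesterone-responsive genes keep medians of 1.33 and -1.01 without estrus replicate 3, while the squamous and the oviduct and ciliated lists drop to 0.19 and 0.067.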

How the data were processed

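The authors filtered the reads, aligned them with Bowtie2 2.2.5, estimated abundance with RSEM 1.2.8 on a patch release of GRCm38 per the labels, and deposited 1 table without counts or a named unit, so that the depth is known only relative to other libraries. The deposited values are read here as FPKM, since they are not whole, sum differently in each library and come from RSEM. Symbols were matched by Entrez Gene identifier to RefSeq's table of GRCm38.p6, which named 20265 of 20414 genes. Genes averaging 1 FPKM or more were tested as log2(FPKM + 1), pseudocount 1, with limma 3.58.1 (R 4.3.3) in its trend setting, without covariates and with Benjamini-Hochberg adjustment over all of them, once on the 6 uterus libraries and once on all 90. The step was tested on simulated data. Python 3.11.15 with scipy 1.17.1, pandas 2.3.3 and numpy 2.4.6 gave the other values, and matplotlib 3.10.9 the plots. Alternatives changed the pseudocount, filter, scale, moderation, weights, block and libraries used. The comparison and the gene lists were chosen with earlier results of these data known.

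Named genes are Esr1, Pgr, Esr2 and the hedgehog list, the 3 most abundant tested members of each list and up to 4 with the smallest limma p and an absolute log2 fold change of 1 or more, and the 12 leading genes in each direction. Members named only because a fit called them, and Arg1 and Cyp2s1, were chosen after their values were seen. Genes without a symbol are counted but not named, and some genes that these rules select are counted in the totals but not reported here.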

Additional observations from a re-analysis of the deposited data

How the results depend on the processing

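The number of genes called by limma in the 6 uterus libraries was 0 with a pseudocount of 0.1, no filter, a filter of 5 FPKM, the median-of-ratios and TPM scales, robust moderation, library quality weights, no limit on the fold and a replicate block, and 0 to 2 with single libraries left out (2 without estrus replicate 2, 1 without diestrus replicate 3). Genes whose phases did not overlap numbered 329 in all and 219 with a filter of 5 FPKM. With single libraries left out they numbered 302 to 1657, the lowest without estrus replicate 3 and the highest without estrus replicate 2. Each of these settings has fewer samples to overlap, and why the counts differ between them was not tested. The 90-library fit called 914 genes, 395 without estrus replicate 3 to 2146 without estrus replicate 2, and 742 to 964 under the other settings, the replicate block giving 938 and a correlation between tissues of a mouse, chosen after seeing the data, 916. The replicate numbers do not pair the libraries, as the deviations of same-numbered libraries had r of -0.248, -0.267 and -0.00555, and estrus replicate 2 correlated best with diestrus replicate 1 (0.444). With the block, 0 genes were called in the uterus libraries.

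Of 385 list medians under the alternatives, 367 moved by less than the spread between libraries and 18 by more, among them antimicrobial genes (0.447 without estrus replicate 3, from 1.58) and progesterone-responsive genes (-0.488 without diestrus replicate 3). Of 2793 values of named genes, 9 moved by more, all with the pseudocount of 0.1. A gene's spread comes from the same libraries, so leaving a library out cannot move its fold change by more than that. Robust moderation leaves the fold change as it is. The counts therefore do not show that values are stable when a library is left out. The median of squamous markers went from 1.83 to 0.19 without estrus replicate 3, yet counted as moving by less than its spread of 1.90. The cause of the shifts in medians and values was not tested. With 3 libraries per phase, large differences were not called in the 6 libraries either. Spink12 at 5.04 and Npl at -4.01 had an adjusted p of 0.897 with limma.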

Other observations

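Of 15 tested immediate early genes, which cells switch on within minutes of a stimulus, 11 were higher in estrus, with a median log2 fold change of 0.155, or 0.136 without estrus replicate 3. Ier3 had 533, 129.5 and 147 FPKM in estrus and 184, 64.8 and 78.4 FPKM in diestrus (1.14 ± 0.63, and 1.42 without estrus replicate 3). Jund and Junb had log2 fold changes of 0.14 ± 0.27 and 0.15 ± 0.31, and of 0.14 and -0.13 without estrus replicate 3. Myc, a growth-promoting transcription factor gene, had 7.02, 38.1 and 16.4 FPKM in estrus and 48.7, 22.8 and 71.6 FPKM in diestrus (-1.33 ± 0.65, and -1.32), and fell in the 90-library fit with and without estrus replicate 3, but had -0.76 and was not called without estrus replicate 1.

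Growth factor and receptor genes had no common direction, with 22 of 41 tested members higher and a median log2 fold change of 0.04, or 0.017 without estrus replicate 3. The insulin-like growth factor binding protein gene Igfbp4 had 81.6, 163 and 104 FPKM in estrus and 238, 144 and 328 FPKM in diestrus (-1.004 ± 0.39, and -0.95 without estrus replicate 3), and Igfbp2 3.46, 2.75 and 20.4 FPKM in estrus and 2.01, 0.76 and 0.98 FPKM in diestrus (1.70 ± 0.68, and 0.90), without overlap. Markers of macrophages and dendritic cells had a median of -0.009 over 18 genes, or 0.132 without estrus replicate 3. Cd68, a lysosomal protein gene of macrophages, had 146, 14.4 and 17.4 FPKM in estrus and 12.6, 13.7 and 13.4 FPKM in diestrus, without overlap (1.28 ± 0.82, and 1.74), and the integrin gene Itgam 27.6, 1.39 and 14.9 FPKM in estrus and 1.67, 1.70 and 3.22 FPKM in diestrus (1.72 ± 0.86, and 1.40). Estrus replicate 1 was the highest library for both genes, and without it Cd68 had 0.24 and Itgam 0.98. Lymphocyte markers had a median of 0.006 over 12 genes, or 0.057 without estrus replicate 3, with the granzyme gene Gzmb at 2.2, 1.83 and 0.59 FPKM in estrus and 3.78, 3.84 and 7.5 FPKM in diestrus, without overlap (-1.26 ± 0.40, and -0.95).

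Of the genes of myometrial contraction, 11 of 17 tested members were lower in estrus, with a median log2 fold change of -0.12, or -0.104 without estrus replicate 3, and the relaxin receptor gene Rxfp1 had 25.2, 36.1 and 6.37 FPKM in estrus and 44.9, 34.5 and 58.7 FPKM in diestrus (-1.26 ± 0.60, and -0.56 without that library). Of 6 tested transcription factors that the study names as shared by several of its target tissues, 3 were higher in estrus. The log2 fold changes were -0.47 ± 0.31 for Nr2f2, -0.81 ± 0.35 for Srf and 0.16 ± 0.29 for Klf5, and -0.36, -0.44 and -0.04 without estrus replicate 3. Adipocyte markers were higher in estrus in 12 of 12 tested members, with a median of 0.803 and of 0.706 without estrus replicate 3. They overlapped between the phases, where 3.25% of all tested genes lay entirely higher. Mesothelial markers had a median of 0.254 over 7 genes, ovary markers of 0.394 over 6, eosinophil markers of -0.334 over 2 and blood markers of -1.95 over 5. Without the filter these medians were 0.273, 0.033, 0.099 and -1.19. Among the blood markers, the hemoglobin gene Hba-a1 had 21.7, 14.4 and 7.62 FPKM in estrus and 45.3, 18.6 and 227 FPKM in diestrus.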
